A study of Mus musculus with 15 samples.

Results

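A set of 9 genes of B-cell and T-cell receptors were followed in an acute myeloid leukemia of mice that have few lymphocytes of their own. They are the B-cell genes Cd79a, Cd79b, Cd22 and Fcrla and the T-cell genes Cd3d, Cd3e, Cd3g, Cd5 and Cd8a. They were chosen by name, as the probe sets whose annotated gene symbol is exactly 1 of these 9, which gave 16 of 34945 probe sets with a single gene symbol and 9 of 18193 genes tested. Gene expression was measured on 15 Affymetrix Mouse Genome 430 2.0 arrays of leukemia cells taken from leukemic spleens. All 15 arrays carry the genotype label NRASG12V/Mll-AF9, which joins the Mll-AF9 fusion gene to an oncogenic form of NRAS. Doxycycline turns this NRAS off. All hosts were SCID/Beige mice given the leukemia cells through the tail vein. Vehicle-treated mice, labelled 0 h, gave the 5 RAS-ON arrays. Mice on doxycycline gave the 10 RAS-OFF arrays, a pair for each of 48, 60, 72, 84 and 96 h of treatment. No vehicle-treated array is labelled with a later time, so doxycycline and time since 0 h cannot be told apart in any comparison with RAS-ON. The labels do not state the age of the mice, the promoter of the transgene, whether each array is its own mouse, or whether spleen cells were sorted before RNA was made.

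B cells sense antigen through surface immunoglobulin, which signals through a pair of chains, CD79A and CD79B, that carry the motifs phosphorylated after binding. CD22 is a sialic acid-binding receptor that dampens this signal, and FCRLA is an Fc receptor-like protein kept inside B cells. T cells use the CD3 delta, epsilon and gamma chains in the same way around the T-cell receptor, with CD8A as a coreceptor and CD5 as a surface receptor that tunes the strength of the signal. The SCID mutation blocks the joining of antigen receptor gene segments, so mature B and T cells are scarce, and the beige mutation impairs the granules of natural killer cells. In mice CD8A is also carried by a class of dendritic cells. A chain of either receptor can be transcribed in cells that make no complete receptor.

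The intensities are the authors' RMA values, on which the median probe set of an array lay between 149.99 and 156.53. On the log2 scale the array medians were 7.23 to 7.29. Cd22, Cd3d, Cd3e and Cd8a lay above that median on all 15 arrays, Cd79a, Fcrla and Cd3g lay below it on all 15, Cd79b lay above it on 11 and Cd5 on 4. As a yardstick for dim signal, chosen after the data were seen, 44 olfactory receptor probe sets had a median log2 value of 6.36, a 95th percentile of 7.49 and a highest value of 8.06. The mean over all arrays was above that highest value for Cd22 (9.85) and Cd3d (9.70), above the 95th percentile for Cd8a (8.01), Cd3e (7.91) and Cd79b (7.80), and below it for Cd5 (7.02), Fcrla (6.36), Cd79a (5.97) and Cd3g (5.41). For Cd79b the RAS-ON mean (8.74) was above the 95th percentile and the RAS-OFF mean (7.33) below it, so its RAS-OFF values lie in the dim range. Brightness also depends on the probes, so it gives no order of expression among genes. The RAS-ON arrays 1 to 3 stood apart from 4 and 5: log2 differences over genes had an SD of 0.236 to 0.302 from one set to the other, against 0.166 to 0.219 inside the first set and 0.169 inside the second. In RAS-OFF 96 h replicate 1 the Gapdh controls, read as 3-prime minus 5-prime signal to judge RNA quality, gave 1.22 on the log2 scale, and on the other arrays 0.10 to 0.36.

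Setting RAS-OFF against RAS-ON asks which of these genes differ once NRAS is off. The receptor genes did not move as a group. Cd79b, Cd22, Cd5 and Cd79a fell, Cd3d, Fcrla and Cd8a rose, and Cd3e and Cd3g did not pass the test. The rise of Cd8a was seen on 3 of its 5 probe sets. A gene counted as called when its adjusted p was below 0.05 in limma's moderated test over all 18193 genes with Benjamini-Hochberg adjustment. In the same test 48.8% of all genes were called, 20.1% up and 28.7% down, against 7 of these 9. The median log2 change was 0.01 over the 9 genes and −0.04 over all genes tested. A change of at least 1 log2 unit together with a call was found for Cd79b and Cd3d, and for 3.80% of all genes. The RAS-OFF and RAS-ON arrays did not overlap for Cd79b, Cd22 and Cd5, which were lower on every RAS-OFF array, and for Cd3d, which was higher on every one, against 21.3% of all genes. Each array reads the RNA of many cells together, so fewer cells of a type and less RNA per cell cannot be told apart.

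**Figure D1:**
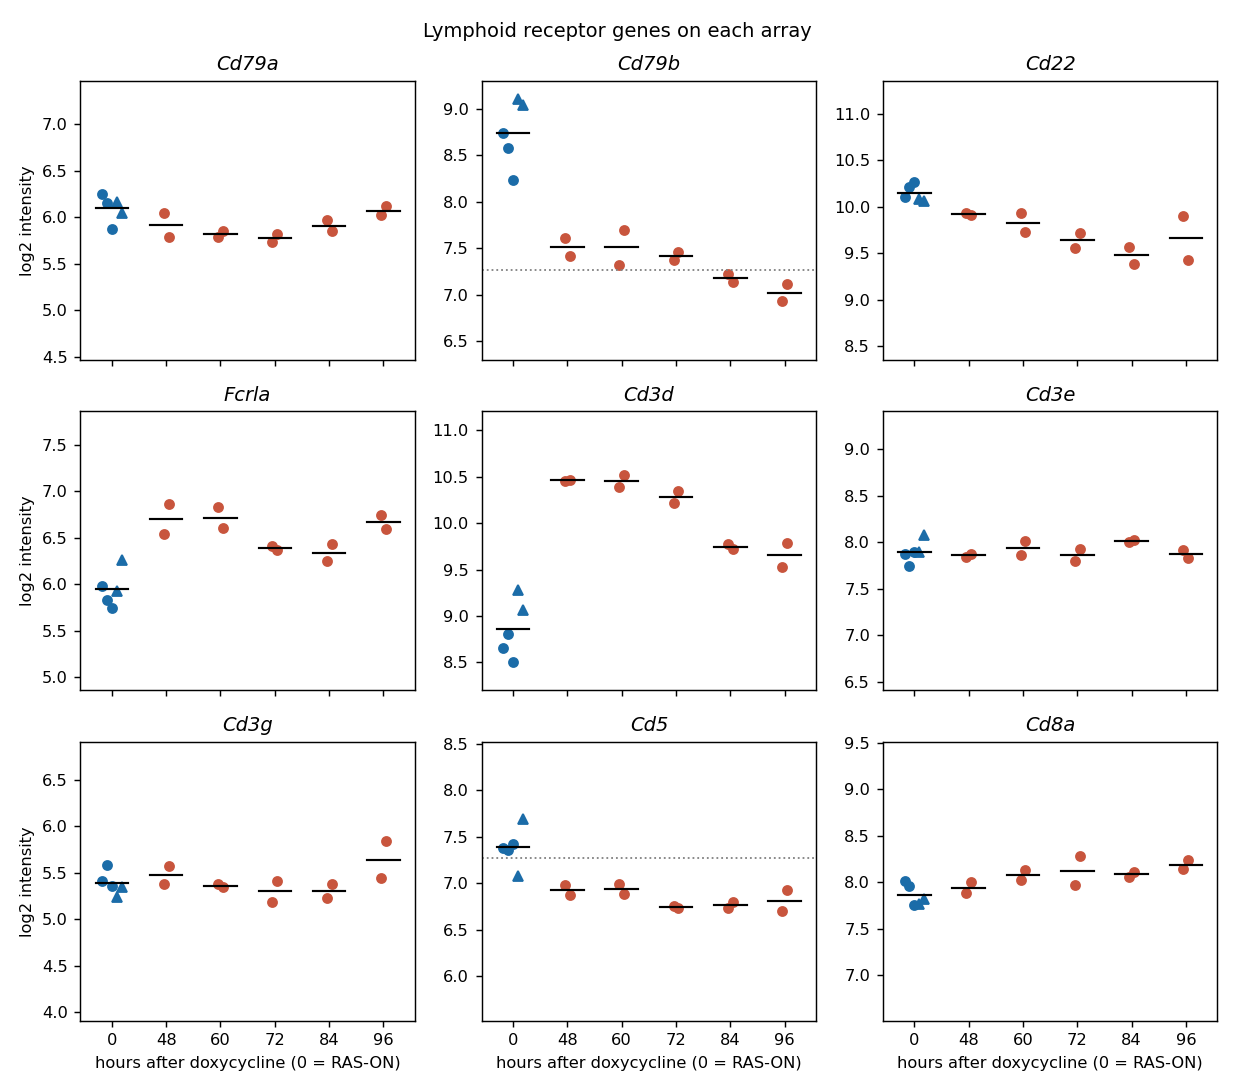
Intensities of the 9 receptor genes on the log2 scale (y axis, each panel spanning the same 3 log2 units) by time in hours after doxycycline began (x axis). Blue marks are RAS-ON arrays (circles for arrays 1 to 3, triangles for arrays 4 and 5), red circles are RAS-OFF arrays, short black lines are group means, and a dotted grey line marks the array median for Cd79b and Cd5, whose arrays lie on both sides of it. Cd79b drops from a RAS-ON mean of 8.74 to a RAS-OFF mean of 7.33, Cd3d climbs from 8.86 to 10.12 and then comes down with time, and Cd3e stays near 7.9.

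Both genes of the B-cell receptor's signalling pair fell, Cd79b on every RAS-OFF array and Cd79a on a dim probe set and with a call that several settings ended. Cd79b, which encodes Ig-beta, had intensities of 427, 383, 302, 550 and 527 on the RAS-ON arrays. The RAS-OFF pairs, in order of time from 48 to 96 h, were 195 and 171, then 160 and 208, 165 and 176, 149 and 141, and finally 122 and 138. The lowest RAS-ON array was above the highest RAS-OFF array. The RAS-ON log2 mean of 8.74 ± 0.35 (SD, n = 5) compared with 7.33 ± 0.24 (SD, n = 10) for RAS-OFF, a change of −1.41 ± 0.12 (SE), which is 2.66-fold lower (limma, adjusted p = 1.85e-07). Within RAS-ON, arrays 4 and 5 were the brightest for this gene, so the change was −1.19 with RAS-ON arrays 1 to 3 alone and −1.74 with arrays 4 and 5 alone, and Cd79b was called with either.

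Cd79a, which encodes Ig-alpha, had a dim probe set, with RAS-ON intensities of 76.2, 71.3, 58.7, 71.5 and 65.9. The RAS-OFF intensities ran from 53.4 through a median of 57.8 to 69.4. Of the RAS-OFF arrays 6 lay below every RAS-ON array and 4 within their range. The change was −0.20 ± 0.07 (SE; limma, adjusted p = 0.0231), and the call was lost without RAS-ON replicate 1 (adjusted p = 0.078), replicate 2 (0.0574) or replicate 4 (0.054), with either set of RAS-ON arrays alone (0.0642 and 0.0575), and without the 60 h (0.0567) or 72 h arrays (0.0725). The log2 difference of Cd79b minus Cd79a within an array was 2.64 ± 0.30 (SD, n = 5) for RAS-ON arrays against 1.43 ± 0.31 (SD, n = 10) for RAS-OFF arrays, and all 10 RAS-OFF arrays lay outside the RAS-ON range. This change of −1.22 had an exact two-sided permutation p of 0.000333, the smallest that the 3003 arrangements of these arrays can give, and 0.000666 after Benjamini-Hochberg adjustment over 4 such pairs. The pairs were chosen after the changes of the genes were seen, so this test is no independent support. The mean log2 value of Cd79a (5.97) lies below the olfactory receptor median of 6.36, and a probe set that dim may not follow a fall, so whether the pair changed unequally is not shown.

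Cd22, the inhibitory receptor of B cells, was bright throughout and fell. Its RAS-ON intensities were 1100, 1186, 1233, 1084 and 1065, and its RAS-OFF intensities ran from 669 through a median of 842 to 978. No RAS-OFF array reached the lowest RAS-ON array. The change was −0.44 ± 0.08 (SE; limma, adjusted p = 0.000197), with values of −0.49 and −0.37 against RAS-ON arrays 1 to 3 and 4 and 5. The gene's second probe set, 1419769_at, had 164, 194, 165, 150 and 183 in RAS-ON and 75.1 to 155 in RAS-OFF, and 8 of the 10 RAS-OFF arrays were below every RAS-ON array. It fell by 0.63 ± 0.07 on the log2 scale (SE; limma over probe sets, adjusted p = 9.51e-06), so the pair moved the same way.

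Fcrla, the intracellular relative of the Fc receptors, rose, read on a dim probe set. With a mean log2 value of 6.36 over all arrays, Fcrla lay at the olfactory receptor median. Its RAS-ON intensities were 63.1, 57.1, 53.7, 61.0 and 76.9, and its RAS-OFF intensities ran from 76.1 through a median of 94.8 to 116. All but 1 of the RAS-OFF arrays were above every RAS-ON array. The change was 0.61 ± 0.08 (SE; limma, adjusted p = 2.42e-05) on 1419907_s_at, whose suffix means that its probes match more than 1 transcript. A second probe set, 1425802_a_at, rose by 0.46 ± 0.09 (adjusted p = 0.00117, limma over probe sets). The third, 1419908_at, was dimmer, at 27.4 to 34.0 in RAS-ON and 27.8 to 37.2 in RAS-OFF, and was not called (0.09 ± 0.06, adjusted p = 0.239). Averaging the probe sets of the gene lowered its change to 0.39, still called.

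The probe sets of the CD3 chains gave unlike results. Cd3d rose on every RAS-OFF array, while Cd3e and Cd3g did not pass the test. The promoter sequences of these genes are shown because they lie beside one another on chromosome 9 and only Cd3d was called. They come from RefSeq (assembly GRCm38.p6), each running 5′ to 3′ on the gene's own strand from 250 bases before its start site to 50 after, with the motif CANNTG, called an E-box and the same on either strand, in capitals. Cd3g is at chr9:44980382-44980681 on the minus strand, Cd3d at chr9:44981536-44981835 on the plus strand and Cd3e at chr9:45009562-45009861 on the minus strand.

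Cd3g: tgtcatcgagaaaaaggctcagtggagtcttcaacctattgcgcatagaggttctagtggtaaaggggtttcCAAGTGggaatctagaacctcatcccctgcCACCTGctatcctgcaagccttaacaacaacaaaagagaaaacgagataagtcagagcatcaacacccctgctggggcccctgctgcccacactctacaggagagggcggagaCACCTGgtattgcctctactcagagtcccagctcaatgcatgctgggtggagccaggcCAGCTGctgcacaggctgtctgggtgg

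Cd3d: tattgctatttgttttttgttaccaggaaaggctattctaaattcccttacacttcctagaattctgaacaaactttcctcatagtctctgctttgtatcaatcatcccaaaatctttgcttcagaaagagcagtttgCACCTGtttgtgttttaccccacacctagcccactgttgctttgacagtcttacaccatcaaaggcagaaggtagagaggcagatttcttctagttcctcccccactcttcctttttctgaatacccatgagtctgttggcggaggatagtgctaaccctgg

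Cd3e: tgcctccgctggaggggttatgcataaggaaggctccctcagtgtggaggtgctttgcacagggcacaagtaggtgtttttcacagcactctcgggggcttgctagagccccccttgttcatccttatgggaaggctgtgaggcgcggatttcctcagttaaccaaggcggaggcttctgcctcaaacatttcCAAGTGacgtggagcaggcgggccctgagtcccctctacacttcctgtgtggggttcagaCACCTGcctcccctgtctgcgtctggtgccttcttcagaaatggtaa

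The start sites of Cd3g and Cd3d lie 1355 bases apart and point away from each other. The windows hold 4 E-boxes for Cd3g, 1 for Cd3d and 2 for Cd3e, and 72.3% of all 32851 promoter windows of 300 bases hold at least 1. The motif GGAA, the core that ETS factors bind, was found on either strand 2, 6 and 5 times in Cd3g, Cd3d and Cd3e, against a median of 3 over all windows and at least 1 in 96.0% of them. The motifs were counted separately and may overlap, and matches describe letters, not binding. Of the 9 genes 8 had a window in the table, and Cd79b is not among them.

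Cd3d, the delta chain, had RAS-ON intensities of 404, 447, 364, 624 and 534. The RAS-OFF pairs from 48 to 96 h were 1405 and 1412, then 1337 and 1466, 1186 and 1300, 875 and 841, and finally 740 and 885. Every RAS-OFF array was above every RAS-ON array. The RAS-ON log2 mean of 8.86 ± 0.31 (SD, n = 5) compared with 10.12 ± 0.37 (SD, n = 10) for RAS-OFF, a change of 1.25 ± 0.10 (SE), 2.39-fold higher (limma, adjusted p = 1.38e-07). As for Cd79b, RAS-ON arrays 4 and 5 were the brightest, and the change was 1.46 against arrays 1 to 3 and 0.95 against arrays 4 and 5, called with either.

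Cd3e, the epsilon chain, had RAS-ON intensities of 235, 214, 239, 238 and 271. Its RAS-OFF arrays ran from 223 through a median of 239 to 261, all within the RAS-ON range. The change was 0.01 ± 0.06 (SE; limma, adjusted p = 0.873). Cd3g, the gamma chain, was dim, with 42.5, 47.9, 41.1, 37.8 and 40.6 in RAS-ON and 36.5 to 57.2 in RAS-OFF, its median being 41.1 and 41.6 in turn. Its change was 0.03 ± 0.08 (SE; limma, adjusted p = 0.772). The sign of Cd3e turned when arrays were centred on their medians (−0.01), and neither gene had a settled direction among the other settings tried.

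Within an array, Cd3d minus Cd3e was 0.96 ± 0.30 (SD, n = 5) for RAS-ON arrays against 2.21 ± 0.40 (SD, n = 10) for RAS-OFF arrays on the log2 scale, with all 10 RAS-OFF arrays outside the RAS-ON range (exact two-sided permutation p = 0.000333, adjusted p = 0.000666). Cd3d minus Cd3g went from 3.48 to 4.70, with 9 of 10 RAS-OFF arrays outside (exact permutation p = 0.000666, adjusted p = 0.000888). Cd3e minus Cd3g was 2.51 in RAS-ON and 2.50 in RAS-OFF, with 2 of 10 outside (exact permutation p = 0.898). Cd3g, with a mean of 5.41, lies below the olfactory receptor median, so the differences that use it carry little on Cd3g itself. The difference from Cd3e rests on 2 probe sets whose means lie above the 95th percentile of that yardstick. The Cd3e mean (7.91) is still below the yardstick's highest value of 8.06, and this difference too was chosen after the changes were seen. Whether the chains changed unequally is therefore not settled. With RAS-ON arrays 1 to 3 alone the differences moved by 1.39 for Cd3d minus Cd3e and 1.50 for Cd3d minus Cd3g, and with arrays 4 and 5 alone by 1.02 and 0.82.

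**Figure D2:**
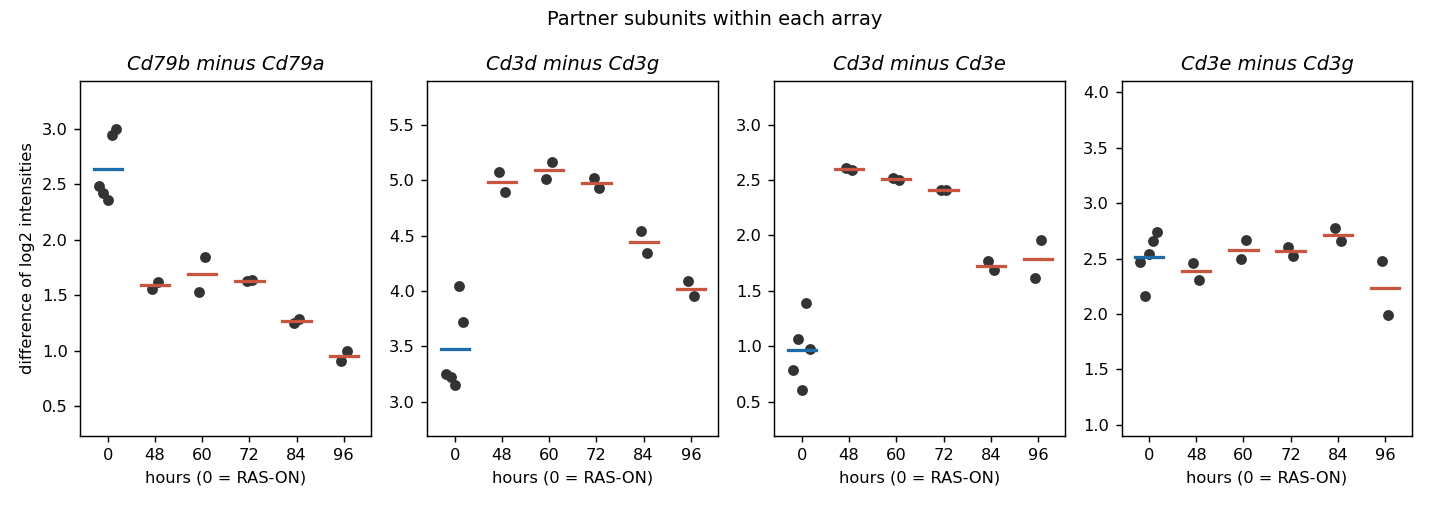
Difference of log2 intensities between receptor partners within an array (y axis) by hours after doxycycline began (x axis, 0 being RAS-ON) for 4 pairs (panels), with a point for each array and lines at the group means (blue for RAS-ON, red for RAS-OFF). Over all RAS-OFF arrays Cd79b minus Cd79a goes from 2.64 to 1.43, both differences with Cd3d go up, and Cd3e minus Cd3g stays at 2.51 and 2.50.

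The genes next to the CD3 group were measured as well. Ube4a, a ubiquitin chain elongation factor on the far side of Cd3g, rose by 0.34 ± 0.05 (SE; limma, adjusted p = 6.91e-05). Mpzl2, an adhesion protein gene beside Cd3e, rose by 0.18 ± 0.06 (SE; limma, adjusted p = 0.0347). Both changes are smaller in size than that of Cd3d.

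Cd5, the surface receptor that tunes T-cell signalling, fell. Its RAS-ON intensities were 167, 164, 172, 135 and 207, and its RAS-OFF intensities ran from 104 through a median of 114 to 128. The groups did not overlap. The change was −0.55 ± 0.08 (SE; limma, adjusted p = 4.31e-05), and it was −0.55 against either set of RAS-ON arrays.

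Cd8a, the coreceptor chain, rose by 0.22 ± 0.06 on the log2 scale on its brightest probe set, 1440164_x_at (SE; limma, adjusted p = 0.0107). That probe set had 259, 249, 216, 217 and 227 in RAS-ON and ran from 236 through 272 to 311 in RAS-OFF, with 7 of 10 RAS-OFF arrays above every RAS-ON array. Against RAS-ON arrays 1 to 3 its change was 0.17 and the call was lost (adjusted p = 0.0775), while against arrays 4 and 5 it was 0.29 and held (adjusted p = 0.0124). The other probe sets of Cd8a disagreed in size. On 1440811_x_at the RAS-ON values were 72.7, 66.0, 64.4, 77.3 and 68.6 against 93.3 to 137 in RAS-OFF, with no overlap and a rise of 0.70 ± 0.06 (adjusted p = 7.87e-07, limma over probe sets). On 1444078_at the values went from 68.8 to 81.5 in RAS-ON and from 80.5 to 141 in RAS-OFF, a rise of 0.60 ± 0.08 (adjusted p = 2.22e-05). On 1451673_at and 1425335_at the changes were 0.05 ± 0.08 (adjusted p = 0.598) and 0.05 ± 0.07 (adjusted p = 0.556), and neither was called. The suffix x in a probe set's name means that some of its probes also match other transcripts, and it is carried by 2 of the 3 probe sets that rose. The 2 probe sets that were not called are annotated to the same reference record. The 3 that rose are each annotated to a different one. Whether the gene itself rose is therefore not settled.

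Over all 16 probe sets, 6 rose, 5 fell and 5 were not called, in a test that called 45.4% of 34945 probe sets. Of the genes with several, Cd22 was called down on both, Fcrla up on 2 of 3 and Cd8a up on 3 of 5. No gene had probe sets called in opposite directions. For 5 of the 16 the RAS-OFF and RAS-ON arrays did not overlap, against 18.3% of all probe sets.

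**Figure D3:**
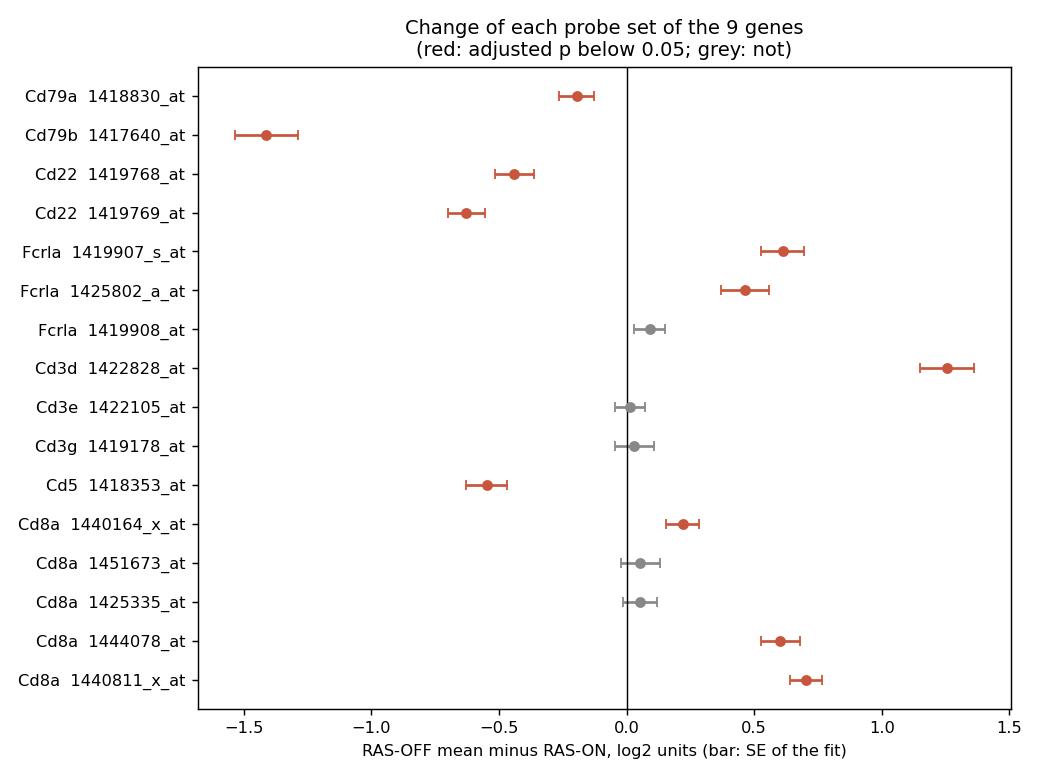
Log2 change of RAS-OFF minus RAS-ON (x axis) for each of the 16 probe sets of the 9 genes (y axis), with bars of 1 standard error. Red marks passed an adjusted p of 0.05 over all probe sets and grey marks did not. The probe sets of Cd8a spread from 0.05 to 0.70 and those of Fcrla from 0.09 to 0.61, while both of Cd22 lie below 0.

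The comparisons at single times ask when the difference from RAS-ON is seen, and they share the 5 RAS-ON arrays. At 48 h 4 of the 9 genes were called, against 27.4% of all genes, and at 60 h 4 against 25.8%. The counts were 6 against 31.8% at 72 h, 5 against 36.8% at 84 h and 6 against 37.6% at 96 h. Cd79b, Cd5, Fcrla and Cd3d were called at all 5 times. Cd22 was called at 72, 84 and 96 h, Cd79a at 72 h alone and Cd8a at 96 h alone, whereas Cd3e and Cd3g were called at none. Single times rest on 2 arrays each. In simulated data for the 48 h comparison a change of 0.5 log2 units was recovered for 64% of 100 genes. Far fewer genes were changed there than were called here, so this share is only a rough guide.

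Cd3d was highest at the first times and came down afterwards. From 48 to 96 h its log2 changes against RAS-ON were 1.60, 1.59, 1.41, 0.88 and 0.80. In mean intensity the order was 48 h (1408), 60 h (1401), 72 h (1242.85), 84 h (858), 96 h (812) and RAS-ON (475). The arrays of 48 and 60 h overlapped, as did those of 84 and 96 h, while 60 and 72 h, 72 and 84 h, and 96 h and RAS-ON did not. The slope over the 5 RAS-OFF times, which uses no RAS-ON mean, was −0.23 ± 0.04 log2 units per 12 h (SE; limma, adjusted p = 0.00234), and Cd3d was the only one of the 9 genes whose slope was called, against 13.7% of all genes, 8.75% downward.

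Cd79b had changes of −1.23, −1.23, −1.33, −1.56 and −1.72 from 48 to 96 h. Its arrays overlapped between 48 and 60 h and between 60 and 72 h, and those of 72, 84 and 96 h lay apart in falling order. The Cd79b log2 means at 72, 84 and 96 h (7.41, 7.18 and 7.02) lay below the yardstick's 95th percentile of 7.49. The slope of −0.13 ± 0.05 per 12 h did not pass (limma, adjusted p = 0.0938). It passed without RAS-ON replicate 3 and in a regression on the 10 RAS-OFF arrays alone. Cd22 had changes of −0.22, −0.32, −0.51, −0.67 and −0.48 and a slope of −0.09 ± 0.03 (adjusted p = 0.074), which was −0.14 (adjusted p = 0.0099) without RAS-OFF 96 h replicate 1, the array whose Gapdh control stood apart, and −0.04 (adjusted p = 0.412) without RAS-OFF 96 h replicate 2. Fcrla had changes of 0.75, 0.76, 0.44, 0.39 and 0.72 with no called slope.

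The other genes of the same cells and pathways were counted in the same test. Of 14 measured B-lineage genes 3 rose and 4 fell, with a median change of −0.01. Fcer2a, the low-affinity IgE receptor CD23, rose by 0.82 ± 0.10 (SE; limma, adjusted p = 9.67e-06), and Spib, a lymphoid ETS factor, rose by 0.61. Cd37, a tetraspanin, fell by 0.75, with RAS-ON at 1781 to 2040 and RAS-OFF at 747 to 2080, so that the groups overlapped, and by 0.29 with the mean of its probe sets. Among the defining markers, Pax5, the B-lineage commitment factor, fell by 0.36 (by 0.18 with the mean of its probe sets) and Ms4a1, which encodes CD20, rose by 0.22. Of 8 genes of early B cells and receptor rearrangement 1 rose and 1 fell. Rag1, the recombinase, was dim, at 21.0 to 23.2 in RAS-ON and 18.8 to 24.3 in RAS-OFF, and was not called (−0.03, adjusted p = 0.666). Il7r, the interleukin 7 receptor, rose by 0.29 and Vpreb3, a pre-B-cell receptor protein, fell by 0.26. Both calls were lost with RAS-ON arrays 4 and 5 alone, that of Il7r also with the mean of its probe sets, and that of Vpreb3 also without RAS-ON replicate 1 or 2.

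Ighm, the immunoglobulin heavy chain that CD79A and CD79B accompany, had RAS-ON intensities of 2420, 2859, 3007, 1990 and 1802 and RAS-OFF intensities of 829 to 1235. The groups did not overlap. It fell by 1.25 ± 0.11 (SE; limma, adjusted p = 2.84e-07) on its brightest probe set, but by 0.23 with the mean of its probe sets, still called. Of the 8 measured immunoglobulin and plasma cell genes 1 rose and 2 fell. Prdm1, a plasma cell regulator, rose by 0.28 (0.17 against RAS-ON arrays 1 to 3 and 0.45 against arrays 4 and 5), and Derl3, of endoplasmic reticulum protein disposal, fell by 0.16, a call lost in 7 of 30 settings.

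Of 13 measured genes that signal below the B-cell receptor, 8 fell and 4 rose, with a median of −0.20, where 28.7% of all genes fell and 20.1% rose. Vav1, an exchange factor, fell by 0.65 and Plcg2, a phospholipase, by 0.51, whereas Dapp1, an adaptor, rose by 0.52 and lost its call with the mean of its probe sets. Many of these genes also act in myeloid cells. Among 11 genes of the Siglec and Fc receptor families, to which Cd22 and Fcrla are related, 5 fell and 1 rose. Fcgr2b, the inhibitory IgG receptor, fell by 0.48, Fcgr3 by 0.44 and Mag by 0.31, the last losing its call with RAS-ON arrays 4 and 5 alone. Of 6 signalling adaptors and lectin receptors of other immune cells (Fcer1g, Tyrobp, Hcst, Cd247, Clec7a and Clec1b), 2 fell and 4 were not called. Tyrobp fell by 0.34 and Fcer1g by 0.22, the latter losing its call without the 96 h arrays and with 2 groups in place of 6.

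The 17 other T-lineage genes measured held 1 that rose, 3 that fell and 13 not called (median change 0.01). Cd6, a relative of Cd5, fell by 0.52 ± 0.05 (SE; limma, adjusted p = 1.13e-06), at 173 to 198 in RAS-ON and 119 to 139 in RAS-OFF. Thy1 fell by 0.60 and Cd28, the costimulatory receptor, by 0.53. The gene that rose, named after its values were seen, was Cd2, by 0.475 ± 0.08 (SE; limma, adjusted p = 0.000172). Its probe set was dim, with a mean log2 value of 5.73. The call of Thy1 was lost with RAS-ON arrays 4 and 5 alone, where Cd28 turned to 0.11 (adjusted p = 0.196), and Cd28 also lost its call without RAS-ON replicate 1, 2 or 3, without the 84 h arrays, and without replicate 1 of 48, 84 and 96 h together. Cd4 had a change of 0.10 (adjusted p = 0.146) and Cd247, the zeta chain of the T-cell receptor complex, one of 0.03 (adjusted p = 0.671), and Lck was not measured under a single gene name. Of 12 genes of T-cell receptor signalling 4 fell and 2 rose, with Ptpn22 falling by 0.71, Lcp2 by 0.59 (by 0.30 with the mean of its probe sets) and Prkcq rising by 0.38.

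**Figure D4:**
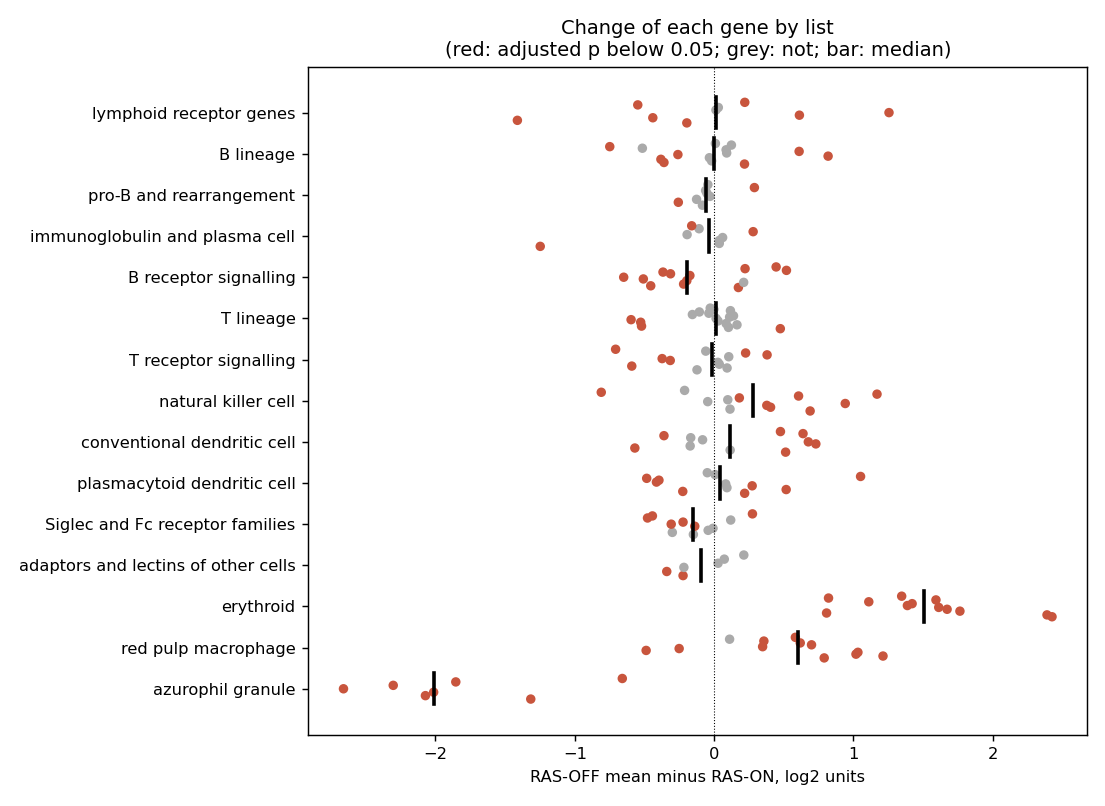
Log2 change of RAS-OFF minus RAS-ON (x axis) for the genes of each list (rows), with red marks for genes called at an adjusted p of 0.05 and grey marks for the others, and a bar at each list's median. The receptor genes spread on both sides of 0 around a median of 0.01, while erythroid genes have a median of 1.51 and azurophil granule genes one of −2.01.

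Genes that mark other cell types and stages moved between the same groups. Whether leukemia cells or host cells carried them was not tested. All 12 measured erythroid genes rose, and their summed intensity was 42650 to 53400 in RAS-ON and 102500 to 127900 in RAS-OFF. Of 12 red pulp macrophage genes 9 rose and 2 fell, with sums of 13050 to 17820 and 18560 to 24960. All 7 azurophil granule genes, made by immature granulocytic cells, fell, with sums of 48830 to 67080 and 14380 to 23610. Of 12 natural killer cell genes 7 rose and 1 fell, with sums of 4477 to 6269 and 5408 to 8009, which overlap. The chemokine gene Ccl5 rose by 1.17, the granzyme gene Gzma by 0.94 and Ncr1, the defining receptor, by 0.69, whereas Nkg7, a granule protein gene, fell by 0.81 (by 0.51 against RAS-ON arrays 1 to 3 and by 1.27 against arrays 4 and 5). For the T-lineage genes the sums were 2642 to 3049 and 2531 to 3004, which overlap, and for the B-lineage genes they were 4572 to 5081 and 3784 to 5494, which overlap as well. Such sums weigh the brightest genes most. Cd37 alone lay at 1781 to 2040 in RAS-ON and 747 to 2080 in RAS-OFF. Among natural killer genes Nkg7, which fell, lay at 931 to 2028 and 651 to 1000, and Klrd1, which rose, at 954 to 1392 and 1201 to 2074. An overlap of sums therefore does not show that a cell type was unchanged. The part of any of these cell types in the changes of the 9 receptor genes was not tested.

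Dendritic cells, which can carry CD8A, gave a mixed picture. Of 11 conventional dendritic cell genes 5 rose and 2 fell, with sums of 30960 to 38750 in RAS-ON and 35400 to 42540 in RAS-OFF. Cd24a alone lay at 13072 to 16047 in RAS-ON and 19948 to 21856 in RAS-OFF, so these sums lean heavily on that gene. Flt3 rose by 0.73 (0.37 against RAS-ON arrays 4 and 5 alone) and Ly75, which encodes CD205, by 0.64. The genes that fell, named after their values were seen, were Irf8, a factor of the CD8A-bearing class, by 0.57 ± 0.13 (SE; limma, adjusted p = 0.00238) and Wdfy4 by 0.36 ± 0.06 (adjusted p = 9.45e-05). For Irf8 the RAS-ON log2 mean was 12.705 on arrays 1 to 3 and 12.2 on arrays 4 and 5, against 11.934 in RAS-OFF. On that gene 5 of 10 RAS-OFF arrays lay within the RAS-ON range. Zbtb46 rose by 0.68 (0.40 without RAS-ON replicate 4), a call lost in 4 of 30 settings, and Xcr1, the defining receptor of the CD8A-bearing class, rose by 0.51 ± 0.18 (SE; limma, adjusted p = 0.0259), a call lost in 9 of 30. The other markers listed for that class were not called: Batf3 changed by 0.115 (limma, adjusted p = 0.208) and Itgae by −0.17 (adjusted p = 0.106). Clec9a was not measured under a single gene name. Of 12 plasmacytoid dendritic cell genes 4 rose and 4 fell. Irf7 rose by 1.05 (0.69 against RAS-ON arrays 1 to 3 and 1.59 against arrays 4 and 5), Ccr9 rose by 0.52 (0.19 with the mean of its probe sets) and Pacsin1 fell by 0.48, while Siglech rose by 0.22, a call lost in 7 of 29. The rest of the called genes were named after their values were seen. Ly6d rose by 0.27, whereas Cox6a2 fell by 0.41, Ptprs by 0.40 and Bst2 by 0.225 (limma, adjusted p = 0.0494 for Bst2). The part of dendritic cells in the rise of 3 of the 5 Cd8a probe sets was not tested.

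For each called receptor gene, the genes most like it across arrays were those with the highest Pearson r of log2 values over the 15 arrays, which share the groups and so the difference between them. For Cd79b these were Bckdha (0.991) and Tmed4 (0.990), and for Cd3d Mgst1 (0.985) and Rnf144a (0.981). For Cd22 they were Ahnak (0.971) and Csf2rb (0.962), for Cd5 Bid (0.935) and Rbmx (0.935), and for Fcrla Cyp4v3 (0.934) and Rtl5 (0.930). For Cd79a they were Ppp1r16a (0.900) and Itfg2 (0.894), and for Cd8a Cend1 (0.876) and Panx2 (0.866). None of these 14 is a gene of the B-cell, T-cell or natural killer lists. Between Cd79b and Cd3d r was −0.659 over the 15 arrays and 0.877 for deviations from the group means. RAS-ON arrays 4 and 5 were the brighter for both, with log2 means of 9.07 and 9.17 against 8.52 and 8.66 for arrays 1 to 3. The means of both genes also came down between 48 and 96 h, but the deviations leave that fall out, since each time's own mean is removed.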

How the data were processed

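Total RNA of spleen leukemia cells was hybridised to Affymetrix arrays. The authors deposited 1 linear intensity per probe set and array, made with RMA per the submitters' processing notes, which equalises arrays, so a shift of most genes would not show. RMA's version is not given in the sources used here. Here log2 was taken and genes were named through the platform annotation: of 45101 probe sets 34945 had 1 symbol, 932 several, 9160 none, and 64 were controls. Each gene was its probe set with the highest mean, with no filter. limma 3.58.1 (R 4.3.3) fitted 6 group means to all 15 arrays. RAS-OFF is the mean of its 5 time means. P-values are two-sided and measure the spread between arrays, which may be technical, since the labels do not call replicates separate mice. No 2 arrays were identical. In simulated data for this comparison 92% of 100 genes changed by 0.5 log2 units were recovered.

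The members, the 14 other lists and the rule for named genes (all members, up to 3 called genes a list with the largest change, defining markers, CD3 neighbours, the 2 most alike genes) were chosen with earlier results of these data known. Alternatives were the filter on dim genes, mean of probe sets, median centring, eBayes settings, array weights, a replicate block, arrays or times left out, a minimum change, 2 groups and a regression within RAS-OFF. The split of RAS-ON arrays, the pair tests and the olfactory yardstick were added after seeing the data.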

Additional observations from a re-analysis of the deposited data

Results flagged for a closer look

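Cd3d differed between RAS-OFF times by a test of the trend itself: its slope was −0.23 log2 units per 12 h (limma, adjusted p = 0.00234), from a change of 1.60 against RAS-ON at 48 h to 0.80 at 96 h. The slope lay between −0.26 and −0.21 in 21 alternative settings and was called in all of them (adjusted p 0.000117 to 0.0223). None of the 16 probe sets had a RAS-ON array that stood apart from the other 4 by Dixon's criterion.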

How the results depend on the processing

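The 7 calls in RAS-OFF against RAS-ON became 6 to 7 with 1 array left out. They became 4 without the dimmest 40% of genes, which leaves 5 of the 9 genes in the test, and 2 with a minimum change of 1. With 1 array left out the counts were 3 to 4 at 48 h, 3 to 5 at 60 h, 4 to 6 at 72 h, 4 to 6 at 84 h, 4 to 6 at 96 h, 10 to 11 for probe sets and 1 to 2 for the slope. Without the dimmest genes they were 2 at 48 h and 3 at 84 h. The slope count rose from 1 to 2 with the mean of probe sets (Cd22), the replicate block (Cd79b) and a regression within RAS-OFF (Cd79b). The replicate block gave 6 calls, losing Cd8a (0.10, adjusted p = 0.332), and among the other named genes lost Prdm1, Fcer1g, Xcr1 and Siglech. Arrays of the same number do not pair here: their deviations correlated at −0.237 to 0.217 over 30 pairs, 5 of them above 0.1.

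Mostly values that passed no test changed sign. With 1 array left out Cd3e ran from −0.027 to 0.058, Cd3g from −0.01 to 0.078 and Cd3e minus Cd3g from −0.105 to 0.04. Cd3e was −0.01 with median centring, −0.077 with RAS-ON arrays 4 and 5 alone and −0.014 without 84 h. Cd3g was −0.08 with the replicate block, −0.035 with RAS-ON arrays 1 to 3 alone and −0.026 without 96 h. Cd3e minus Cd3g was 0.107 with RAS-ON arrays 1 to 3. Cd4 was −0.037 with the mean of probe sets and −0.002 with the block, and with RAS-ON arrays 4 and 5 Cd247 was −0.005 and Cd28, called otherwise, 0.114. The cause was not tested. Cd79b and Cd3d kept direction and call in every setting run on them, and Cd22, Fcrla and Cd5 in every one but the minimum change of 1, which ended their calls, and the filter on dim genes, which left Fcrla and Cd5 out. Of 2117 alternative values 2004 were counted as unchanged. For a gene, slope or difference this meant the same direction and side of the threshold. For a count of calls it meant only a count of similar size, so single calls could be lost. At 72 h, for example, all 22 alternative counts passed as unchanged though they ran from 4 to 7 against 6. The number of arrays limits the precision.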
